A study of Mus musculus with 2 samples.

Results

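The nectins and the synaptic cell adhesion molecules were read in J-RGCs, a type of mouse retinal ganglion cell marked by the adhesion molecule gene Jam2, at postnatal day 6. The members were taken by gene symbol, and all 7 were found among the 24015 symbols listed: the 4 genes Cadm1, Cadm2, Cadm3 and Cadm4, and the 3 nectin genes under their older names Pvrl1, Pvrl2 and Pvrl3 (now Nectin1, Nectin2 and Nectin3). There was 1 group, of 2 libraries named A and B, each made from cells pooled over 5 to 6 animals of its own litter. Both carried the same transgene, in which green fluorescent protein is driven in J-RGCs, and the fluorescent cells were collected with magnetic beads and a cell sorter. The strain and the promoter of the transgene were not stated in the labels. With no other cell type, age or genotype, levels could be set against each other only between genes, or between the 2 libraries.

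Nectins and Cadm proteins are membrane proteins of the immunoglobulin superfamily that join neighbouring cells without calcium. Nectins bind the scaffold protein afadin inside the cell and gather at adherens junctions beside cadherins, and nectin-1 on one cell binds nectin-3 on the other with high affinity. The Cadm proteins, also called SynCAM or nectin-like proteins, hold the axon to its partner at synapses and along myelinated axons. Cadm1 with Cadm2, and Cadm3 with Cadm4, are known as preferred pairs across the cell gap, and their tails bind protein 4.1 family members and PDZ scaffolds such as CASK.

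The gene counts summed to 7916204 in A and 13744313 in B. Levels are counts scaled to a gene total of 1000000 (CPM). For a gene without reads the limit is 3 counts, or 0.379 CPM for A and 0.218 for B, and covers counting error only. The cells were checked against marker lists. All 8 ganglion cell genes stood above 100 CPM in both libraries. Jam2, the only J-RGC gene listed, stood lower in B (1203 CPM) than in A (2344 CPM). The summed level of the 8 ganglion cell genes was 8308 and 11338 CPM in A and B. Nefl alone had 3542 and 6087 CPM of it. Rbpms (1554 and 1021 CPM) and Slc17a6 (1732 and 1439 CPM) were lower in B, and the other genes of the list were higher in B. Of the lists for 10 other cell classes the largest sums were those of endothelial and mural cells (402 CPM in A and 117 in B), microglia (266 and 328 CPM) and Müller glia (179 and 172 CPM). Most of the endothelial and mural sum came from Rgs5 (342 and 82.4 CPM) and Pdgfrb (51.9 and 10.3 CPM). The rest of that list, Pecam1, Cdh5, Tek and Kdr, lay below 10 CPM in both libraries and was not lower in B. Reads from a few other cells and a low level in every J-RGC cannot be told apart in such pools.

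All 7 members were detected at 1 CPM or more in both libraries, a level that 46.8% of all listed genes reached. By mean CPM Cadm2 lay highest and Cadm4 lowest (in B alone Pvrl2 was lowest), with Cadm3 and Cadm1 next to Cadm2 and the nectins next to Cadm4.

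Cadm2 was by far the most abundant member. It had 14397 counts in A and 30313 in B, or 1819 and 2205 CPM, with a mean of 2012 ± 274 CPM (SD, n = 2). By CPM it ranked 52 among all genes in A and 31 in B, so it was among the most often read genes in both libraries. These ranks are not corrected for length, and Cadm2 has 9809 bases of summed exons.

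Cadm3, a Cadm protein known mainly from neurons and their axons, followed at 332 CPM in A and 455 CPM in B (2629 and 6250 counts; mean 393 ± 86.7 CPM, SD, n = 2). Cadm1, which promotes synapse formation in cultured neurons, stood at 178 and 255 CPM (1412 and 3508 counts; mean 217 ± 54.4 CPM). These 3 genes were above 100 CPM in both libraries, as were 6.53% of all listed genes, and each lay higher in B than in A by less than 2-fold. Cadm3 shares 361 exon bases with the chemokine-binding receptor gene Ackr1 on the same strand in GENCODE M21, and Ackr1 was listed at 133 and 61.5 CPM. Reads in the shared stretch could be credited to either gene or to none. Cadm2 shares 256 exon bases with 1700010K23Rik on the other strand, which had only 11 and 7 counts.

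Cadm4, best known from the myelinating Schwann cell side of the axon, was the lowest of the Cadm genes. It had 35 counts in A and 167 in B, or 4.42 and 12.2 CPM, with a mean of 8.29 ± 5.47 CPM (SD, n = 2). Both values were above the limit of 3 counts, and the gene ranked 9059 by CPM in A and 7513 in B. Its preferred partner Cadm3 was read far more often in the same libraries.

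Among the nectins, Pvrl1 was highest in CPM, at 30.4 CPM in A and 61.5 in B (241 and 845 counts; mean 46.0 ± 21.9 CPM, SD, n = 2). Pvrl3, the gene of nectin-3, stood at 13.4 and 28.8 CPM (106 and 396 counts; mean 21.1 ± 10.9 CPM). Pvrl2, the gene of nectin-2, which many non-neuronal tissues also express, stood at 11.5 and 8.37 CPM (91 and 115 counts; mean 9.93 ± 2.21 CPM) and was the only member of the 7 with the higher value in A. Pvrl1 and Pvrl3 exceeded 10 CPM in both libraries, as did 27.8% of all listed genes, and Pvrl2 did so in A only. No nectin reached 100 CPM in either library.

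**Figure D1:**
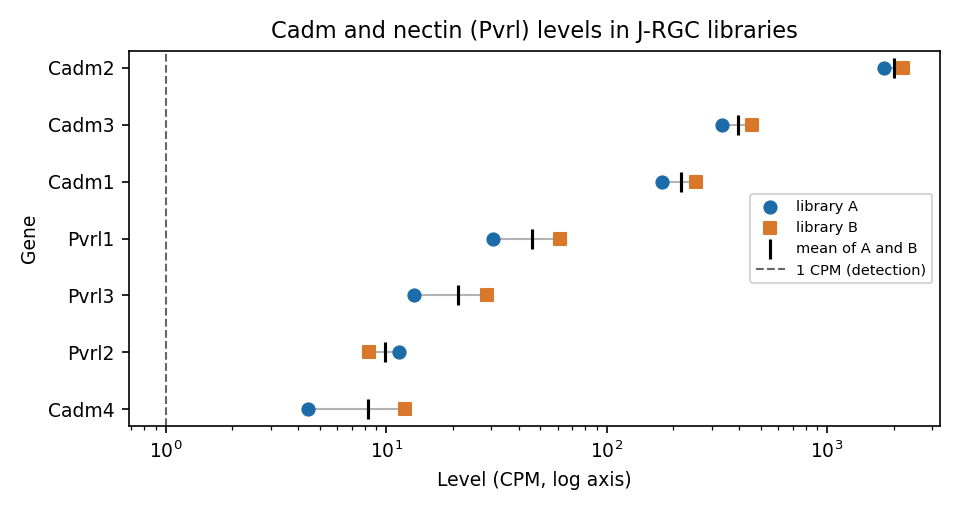
Level of each member in CPM on a log axis, 1 row per gene, with library A as circles, library B as squares and their mean as a bar. Cadm2 lies at 1819 and 2205 CPM, the other Cadm genes except Cadm4 lie between 178 and 455 CPM, and Cadm4 and the nectins lie between 4.42 and 61.5 CPM.

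CPM rises with transcript length, so levels were compared between genes per kb of the gene's summed exon length (GENCODE M21). The members differ in this length from 2161 bases for Cadm4 to 12747 for Pvrl3. Per kb, Cadm2 stood at 185 CPM in A and 225 in B, Cadm3 at 45.8 and 62.7, and Cadm1 at 17.1 and 24.4. The order then ran through Pvrl1 at 5.39 and 10.9, Cadm4 at 2.05 and 5.62 and Pvrl2 at 3.29 and 2.39 to Pvrl3 at 1.05 and 2.26 CPM per kb. In each library the first 4 genes kept this order, and the ranges of Cadm4 and Pvrl2 overlapped.

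The separation of neighbours in that order was judged with a 95% interval that combines counting error with the spread between the libraries for genes of like level. Cadm2 exceeded Cadm3 3.78-fold per kb (interval 1.36 to 10.5). Cadm3 exceeded Cadm1 2.61-fold (1.01 to 6.78), and Cadm1 exceeded Pvrl1 2.55-fold (1.02 to 6.42). Those 3 of the 6 neighbouring steps had intervals above 1, the latter pair of them barely. The lower steps were not separated: Pvrl1 over Cadm4 was 2.12-fold (0.693 to 6.49), Cadm4 over Pvrl2 1.35-fold (0.396 to 4.60) and Pvrl2 over Pvrl3 1.72-fold (0.569 to 5.18). Over all 21 pairs 17 were separated with this length, and Cadm2 exceeded Pvrl3 by 124-fold (43.2 to 356), the widest gap.

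The gene model sets how firm those steps are. Per kb of the longest annotated transcript, Cadm1 stood at 45.5 ± 11.4 in place of 20.8 ± 5.21 CPM per kb (SD, n = 2), since its longest transcript has 4767 bases against 10440 bases of summed exons. Cadm3 over Cadm1 was then 1.68-fold (95% interval 0.647 to 4.35), Cadm2 over Cadm3 was 2.76-fold (0.994 to 7.64), and both intervals held 1. Cadm1 over Pvrl1 was 5.59-fold with that length (2.23 to 14.1). Per kb of coding sequence Pvrl3 moved up from the last place to the fifth, at 12.8 ± 6.62 CPM per kb, because most of its exon bases are not coding. Cadm2, Cadm3, Cadm1 and Pvrl1 held the first 4 places under each of the 3 lengths. Of all 21 pairs, 14 were separated with the longest transcript and 16 with coding length. With coding length the widest gap was that of Cadm2 over Pvrl2, 247-fold (81.3 to 749).

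**Figure D2:**
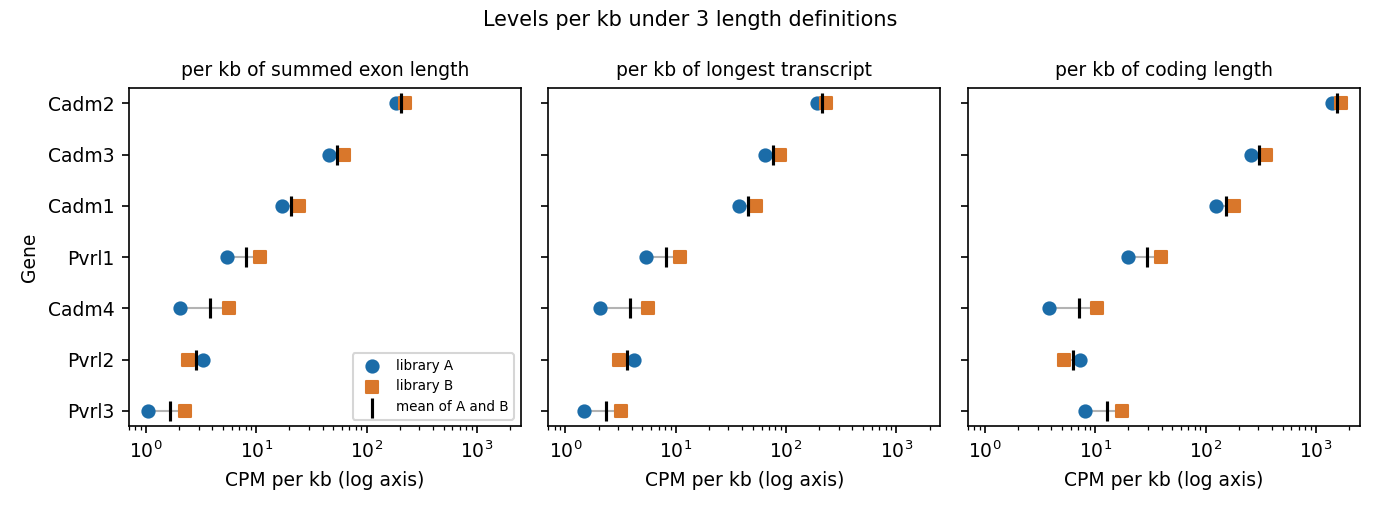
Level per kb on log axes for library A (circles), library B (squares) and their mean (bars), with the length taken as summed exons, longest transcript or coding sequence in the panels from left to right. Cadm2 stands highest in each panel at 205, 210 and 1542 CPM per kb on average, and the places of Cadm4, Pvrl2 and Pvrl3 change between panels.

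As families, the Cadm genes far exceeded the nectins. Their summed level per kb was 250 in A and 318 in B, against 9.73 and 15.5 for the nectins, a 25.7-fold gap in A and a 20.5-fold gap in B. On the log2 scale the median Cadm gene lay 2.91 above the median nectin gene in A and 3.78 in B (mean 3.35 ± 0.612, SD, n = 2). Cadm4 did not share in that gap, since it overlapped Pvrl2 and lay below Pvrl1 in each library.

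Within each family 1 gene took most of the signal. Cadm2 made up 74.1% of the summed Cadm level per kb in A and 70.8% in B, Cadm3 18.3% and 19.8%, Cadm1 6.82% and 7.70%, and Cadm4 0.817% and 1.77%. Pvrl1 made up 55.4% of the summed nectin level per kb in A and 70.0% in B, Pvrl2 33.8% and 15.4%, and Pvrl3 10.8% and 14.6%. The Cadm shares differed between the libraries by 0.872 to 3.27 percentage points and the nectin shares by 3.75 to 18.4, while in fold terms the small share of Cadm4 moved about as much as that of Pvrl2.

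The libraries were also compared gene by gene with an exact two-sided binomial test of the counts, adjusted by Benjamini-Hochberg over 14107 genes. Calls needed an adjusted p under 0.05 together with a 2-fold difference, after a pseudocount of 0.5 CPM was added. The test sets these 2 libraries side by side and says nothing of a condition. Of the 7 members 3 were called, all higher in B, beside 32.3% of all tested genes called in that direction and 10.3% called higher in A. That number is too near the background to say anything of these families. Without the fold minimum all 7 passed the exact test, as did 77.8% of all tested genes.

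The 3 called genes, with log2 ratios that include the pseudocount, were Cadm4 (1.36; adjusted p = 8.46e-09 by the exact test), Pvrl3 (1.08; 3.60e-13) and Pvrl1 (1.00; 1.54e-23), which lay at the edge of the fold threshold. The plain folds of B over A, without the pseudocount, were 2.75, 2.15 and 2.02. Cadm1 (log2 ratio 0.52), Cadm3 (0.45) and Cadm2 (0.28) were higher in B and Pvrl2 higher in A (-0.44), each by less than 2-fold. The median log2 ratio over the 7 members was 0.52, and over all tested genes 0.53. Most genes were higher in B on this scale, so TMM scaling shifted log2 ratios without a pseudocount by -0.38 and the DESeq2 size factors by -0.48, and ratios of low genes with the pseudocount by slightly less. Relative to that shift Cadm1, Cadm2 and Cadm3 lay close to level, with TMM ratios of 0.13, -0.10 and 0.07, and Cadm2 changed sign. Under TMM 1 member was called, Cadm4 at a log2 ratio of 1.01, at the edge of the threshold, beside 23% of all tested genes called higher in B and 14.7% higher in A. With DESeq2 size factors the exact test called none of the 7 at 2-fold, although 5 had an adjusted p under 0.05. Of all tested genes, 37.1% were called in either direction with these factors (21% higher in B and 16.1% higher in A). Pvrl2 was higher in A under each scaling, at -0.80 with TMM.

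**Figure D3:**
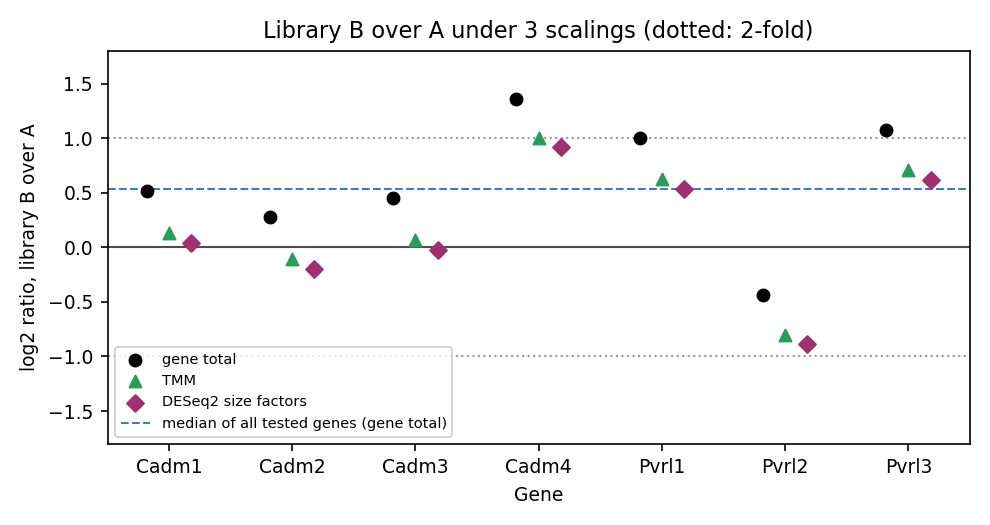
Log2 ratio of library B over A for each member, scaled by the gene total (circles), TMM (triangles) or DESeq2 size factors (diamonds), with dotted lines at 2-fold and a dashed line at the median of all tested genes under gene total scaling (0.53). Cadm4 has the highest ratio (1.36, or 1.01 with TMM) and Pvrl2 is below 0 under each scaling.

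Other measures were set beside these ratios. Over all tested genes the median log2 ratio was 0.33 below a transcript GC content of 40%, the class of Cadm2 (36.9%), and 0.66 from 60%, the class of Cadm4 (60.02%). In the classes between, Cadm1 (0.52), Pvrl3 (1.08) and Cadm3 (0.45) stood beside class medians of 0.40, 0.52 and 0.62. Pvrl1 and Pvrl2 have nearly the same GC content (59.1% and 58.0%), in a class with a median of 0.66, and lay on opposite sides of 0. Genes at a mean of 5 to 50 CPM, the range of Cadm4 and the nectins, had a median log2 ratio of 0.50. That is near the 0.53 of all tested genes, against 0.20 for genes of at least 100 CPM. Of the 10 lists for other cell classes 8 had a median log2 ratio above 0, and Müller glia (-0.96) and rods (-0.60) were below 0. Beside the median of 0.53 over all tested genes, microglia (0.40), bipolar cells (0.23) and amacrine cells (0.47) lay lower. Endothelial and mural cells (0.80), pigment epithelium (0.63), horizontal cells (1.34), astrocytes (1.28) and cones (1.33) lay higher, the last pair from 2 tested genes each. By summed CPM, which 1 or 2 genes can dominate, 5 lists were higher in B and 5 in A. Those with the higher sum in B were microglia, horizontal cells (14.5 and 30.5 CPM), pigment epithelium (7.07 and 9.90 CPM), cones (1.01 and 3.06 CPM) and astrocytes (0.884 and 2.26 CPM). Those with the higher sum in A were endothelial and mural cells, Müller glia, bipolar cells (100.05 and 8.22 CPM), amacrine cells (126 and 108 CPM) and rods (36.8 and 24.4 CPM). At 0 counts in A only were the astrocyte markers Gfap and Pdgfra and the Müller glia markers Rlbp1 and Sox9. The same held for Gnat1, Gnat2 and Cabp5 of the rod, cone and bipolar lists, and Aqp4 was at 0 in B only. The other Müller glia markers Glul, Vim and Slc1a3 had 689, 601 and 88 counts in A and 1767, 532 and 42 in B. Of the other astrocyte markers S100b had 6 and 1 counts and Aldh1l1 1 and 9. Jam2 had a log2 ratio of -0.96 and was called higher in A with TMM and with DESeq2 factors, though not by gene totals. The 8 ganglion cell genes had a median log2 ratio of 0.76, though Rbpms and Slc17a6 among them were lower in B. The part of GC content, depth and other cells in the ratios of the members was not tested.

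Other genes of the nectin group, and receptors that bind them, were at low counts or none. Pvrl4 (nectin-4) had 0 counts in A and 3 in B, which is at the limit of 3 counts. Pvr, the nectin-like protein also known as the poliovirus receptor, stood at 4.29 and 7.28 CPM. Of the 4 receptors of lymphocytes that bind nectins, Pvr or Cadm1, none reached 1 CPM in both libraries: Tigit had 2 and 12 counts, Cd226 6 and 0, Cd96 0 and 27, and Crtam 0 and 20. Cd96 (1.96 CPM in B) and Crtam (1.46 CPM in B) were called higher in B by the exact test, from counts that small, beside 32.3% of all tested genes.

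Genes of the machinery that nectins join at adherens junctions were all detected, 13 of 13, beside 46.8% of all listed genes. Their median was 5.94 CPM per kb in A and 8.92 in B. Ctnnb1 (beta-catenin) stood at 31.0 and 55.5 CPM per kb, and Cdh2 (N-cadherin), the cadherin of neural junctions, at 40.6 and 44.5. Ctnna2, the neuronal alpha-catenin, stood at 22.3 and 28.2, and Tjp1, the scaffold ZO-1, at 13.1 and 24.8 CPM per kb. Mllt4, the gene of afadin, singled out here after its values were seen, stood at 15.3 and 19.4 CPM per kb, above all 3 nectin genes in both libraries. Of the 13 genes 4 were called higher in B, a share close to that of all tested genes, and none higher in A by the exact test: the polarity gene Pard3 (8.08 and 34.3 CPM), the afadin-binding Ssx2ip (10.1 and 37.5 CPM), the epithelial-type alpha-catenin Ctnna1 (9.73 and 22.4 CPM) and the junction gene Plekha7 (2.78 and 6.18 CPM). Pard3 and Ssx2ip were also called with TMM scaling and with DESeq2 factors, and the other two were not.

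The cytoplasmic partners of Cadm proteins were also all detected, 16 of 16, beside 46.8% of all listed genes. Their median was 9.81 CPM per kb in A and 10.9 in B. Cask, a scaffold kinase that binds the Cadm tail, was the highest at 134 and 91.7 CPM per kb. Lin7a and Lin7c, which form a complex with Cask, followed at 74.2 and 102 and at 75.4 and 47.4. Epb4.1l3, the protein 4.1B gene, stood at 63.3 and 58.8 CPM per kb. These 4 genes lay between Cadm2 and Cadm1 in level per kb in both libraries.

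Of the 4 protein 4.1 genes, 2 were called between the libraries, in opposite directions. Epb4.1 (protein 4.1R) was at 510 CPM in A and 168 in B, called higher in A (3.04-fold), whereas Epb4.1l1 (4.1N) was at 88.3 and 238 CPM, called higher in B (2.69-fold). Both were called with TMM scaling as well, but with DESeq2 size factors Epb4.1 was called and Epb4.1l1 was not. Mpp3, a membrane-associated guanylate kinase gene, was called higher in B at 3.66 and 8.29 CPM, though not with TMM. Of the 16 genes 2 were called higher in B and 1 higher in A, beside 32.3% and 10.3% of all tested genes. With TMM scaling the counts were 1 in B (Epb4.1l1) and 2 in A (Epb4.1 and Lin7c), beside 23% and 14.7%. With DESeq2 factors they were 0 in B and 4 in A (Epb4.1, Lin7c, Epb4.1l2 and Cask), beside 21% and 16.1%.

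Among genes that modify these adhesion proteins, all 4 reported were detected, beside 46.8% of all listed genes. St8sia2, a polysialyltransferase known to act on Cadm1, stood at 33.2 and 52.7 CPM per kb, and its relative St8sia4 at 3.73 and 1.48. Adam10, a protease that cuts the outer parts of nectin-1 and Cadm1, stood at 14.8 and 16.1 CPM per kb. St8sia4 was the only one of the 4 called under gene total scaling, 2.51-fold higher in A, beside 10.3% of all tested genes. With TMM the protease gene Adam17 (16.3 and 9.53 CPM) was called higher in A as well, beside 14.7%.

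**Figure D4:**
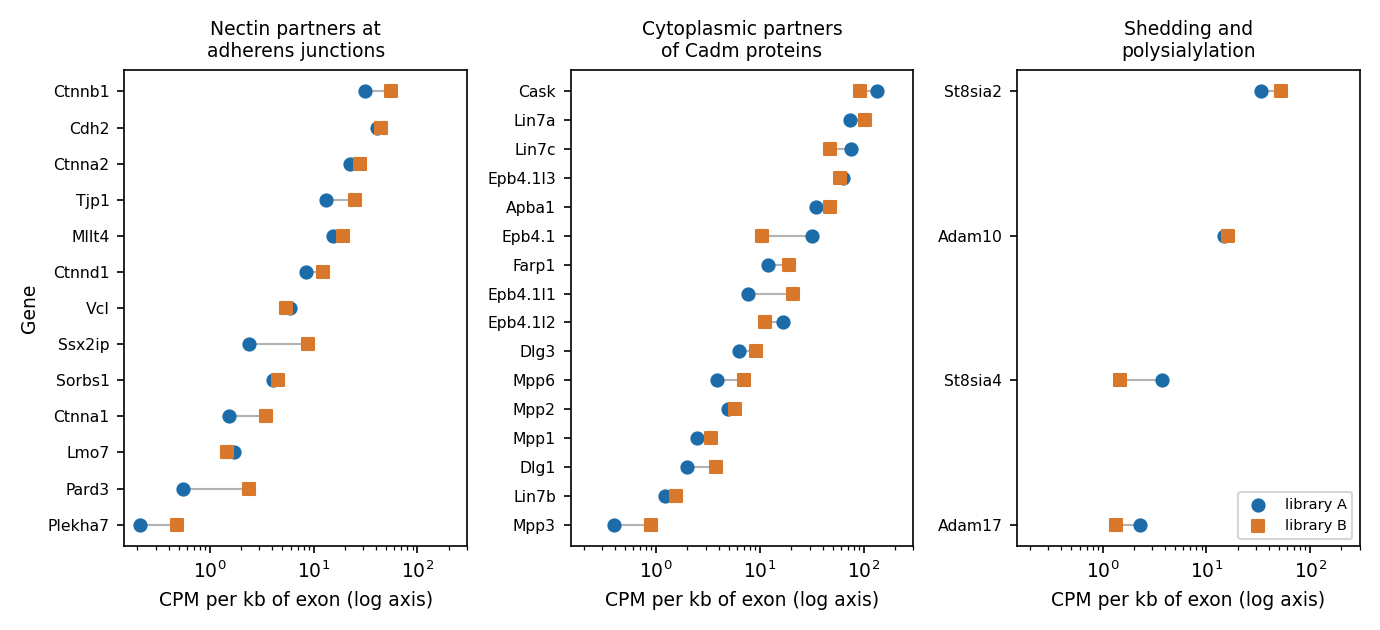
Level per kb of summed exons on log axes for library A (circles) and library B (squares), 1 row per gene, for 13 nectin partners at adherens junctions, 16 cytoplasmic partners of Cadm proteins and 4 genes of shedding and polysialylation. Cask is the highest at 134 and 91.7 CPM per kb, and Epb4.1 and Epb4.1l1 show wide gaps in opposite directions.

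The members also differ widely in gene structure. In GENCODE M21 Cadm2 spans 965 kb, Cadm1 327 kb and Pvrl3 111 kb, whereas Pvrl1 spans 63.5 kb, Cadm3 34.4 kb, Pvrl2 33.8 kb and Cadm4 22.5 kb. The most abundant member was the longest gene and the least abundant by mean CPM the shortest (in B alone Pvrl2 was the least abundant), but Cadm3, a short gene, exceeded Cadm1, and Pvrl3, a long one, was last per kb of summed exons. The coding lengths were much alike, from 1164 bases in Cadm4 to 1647 in Pvrl3.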

How the data were processed

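RNA of 2 libraries was measured. The build was mm9 and the tools were HTSeq 0.6.1, TopHat2 2.0.10 and Trimmomatic 0.32, per the submitters' processing notes, which give no settings, annotation or strand option here. The deposited values are raw counts, listed by gene symbol. The PicoPure and Nugen Ovation Ultralow kits were used, per the labels' protocols. Of the reads listed, 26.8% in A and 30.9% in B fell to a gene, 54.3% and 47.9% to no feature and 18.5% and 20.8% aligned to several places. These lines were kept out of the totals. Counts were scaled to CPM. Exon lengths came from GENCODE M21 on GRCm38, another build than mm9, so no coordinates are given. Of the listed symbols 98.4% matched, some through RefSeq synonyms.

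With 1 group, edgeR's quasi-likelihood test had no contrast. The spread came from an intercept-only edgeR 4.0.16 fit with TMM factors (R 4.3.3) over 11272 genes, with a common biological coefficient of variation of 0.507. Ratios of genes carry 95% intervals from counting error and the trended dispersion. DESeq2 1.42.0 gave size factors for an alternative. The rest used Python 3.11.15 with scipy 1.17.1. The statistics were tested on simulated data. Named were all 7 members, the 4 highest of each partner list per kb and any of its genes called between the libraries. One gene of the shedding and polysialylation list is not reported here. Genes most like a member were not sought, since 2 libraries give no pattern. The members and lists were chosen with earlier results of these data known.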

Additional observations from a re-analysis of the deposited data

How the results depend on the processing

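All 7 members were detected under each of the alternatives except at 5 CPM, where Cadm4 dropped out and 6 were. The count of members called between the libraries, 3 by gene totals, was 1 with TMM, 0 with DESeq2 size factors and 7 with no fold minimum. On the log2 scale the B over A ratio changed sign for Cadm2 (-0.10 with TMM, -0.20 with DESeq2 factors) and Cadm3 (-0.023 with DESeq2 factors). The median Cadm over nectin difference was 4.096 with coding length. Cadm2 over Cadm3 was 2.76-fold with the longest transcript and 3.58 to 4.05 with 1 library left out, where the intervals held 1. They are wider there by construction, since the dispersion was kept and the lone library was assumed to vary like other genes. Of 6 neighbouring steps 3 were separated, against 1 with the longest transcript, 1 with the common dispersion and 0 without either library. Cadm4 over Pvrl2 was 0.834-fold without length correction, and 0.622 without B and 2.35 without A. Pvrl2 over Pvrl3 was 0.488-fold with coding length and 0.471 without length correction. For the scalings, the shift itself gives the change, and for the gene lengths the lengths do. No paired analysis was possible because there is 1 group. Counts of 35 for Cadm4 and 91 for Pvrl2 in A limit the lowest levels.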
